A study of Mus musculus with 12 samples.

Results

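The genes described here are 10 enzymes of lysophospholipid and ether lipid metabolism, *Tmem86a*, *Tmem86b*, *Enpp2*, *Lpcat1*, *Lpcat3*, *Lpcat4*, *Mboat7*, *Agps*, *Gnpat* and *Far1*, taken by name from the 54232 genes of a liver RNA-seq count table. All 10 had a row in the table, and all 10 were among the 17509 genes tested, which needed over 2 reads in 6 or more of the livers. The list was chosen with the measured difference between the genotypes already known, so for these genes the difference is given as a description, with its standard error (SE) and without a test. Liver mRNA was sequenced from 6 WT and 6 LKO mice, 1 library per mouse. LKO mice carried *Marchf6* fl/fl alleles and AlbuminCre, in which Cre recombinase is driven by the promoter of albumin, a gene of hepatocytes, so other liver cells were not the target of the deletion. WT mice were littermates with the same *Marchf6* fl/fl alleles and no Cre. All mice were males on a C57Bl/6J background, were kept on chow, and were 10 weeks old and fasted for 4 h at sacrifice. MARCHF6 is an E3 ubiquitin ligase of the endoplasmic reticulum, and the comparison asks how its loss in hepatocytes alters liver transcripts.

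A lysophospholipid is a phospholipid that has lost one of its fatty acyl chains. It is made by phospholipases, rebuilt to a phospholipid by acyltransferases, or broken down further by lysophospholipases. Ether phospholipids, among them the plasmalogens, carry one chain in an ether bond. Their synthesis starts in peroxisomes with GNPAT, AGPS and the fatty alcohols made by FAR1, and TMEM86A and TMEM86B are lysoplasmalogenases, which cleave the vinyl ether bond of plasmalogens that have lost their acyl chain. ENPP2, or autotaxin, is a secreted lysophospholipase D that turns lysophosphatidylcholine into the signalling lipid lysophosphatidic acid (LPA). LPCAT1, LPCAT3, LPCAT4 and MBOAT7 return an acyl chain to lysophospholipids.

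Gene counts summed to between 14860414 and 22111926 reads in a liver. The mean correlation of a liver with the other livers of its group was between 0.9719 and 0.9778 over log2 CPM (CPM is the read count relative to the library size after TMM scaling). Single libraries still weighed on the fit across all genes, which called 75 genes with all 12 livers, 132 without WT replicate 3 and 38 without WT replicate 5. The whole-gene count of *Marchf6* (March6 in the annotation) was 226 to 247 CPM in WT and 204 to 249 CPM in LKO livers, so it does not separate the groups. Only 1 exon is deleted, and counts over the whole gene do not check that deletion. The hepatocyte markers *Alb* and *Ttr* had 67000 ± 2140 and 5350 ± 439 CPM (SD, n = 6) in LKO and 76100 ± 7050 and 5020 ± 421 CPM (SD, n = 6) in WT livers. The library names number all WT libraries before all LKO libraries, so an effect of that order and one of the genotype cannot be told apart.

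Of the 10 genes, *Tmem86a* was higher and *Enpp2* was lower in LKO livers with groups that did not overlap. *Tmem86b* and *Lpcat3* differed by less and their groups overlapped. For *Lpcat1*, *Lpcat4*, *Mboat7*, *Agps*, *Gnpat* and *Far1* the difference in means was within the spread of the livers. In the fit across all genes (edgeR, quasi-likelihood test, adjusted p under 0.05) 0.428% of all genes tested were called, 0.274% as higher and 0.154% as lower in LKO, and 2 of the 10 were among them, *Tmem86a* as higher and *Enpp2* as lower. The groups of the same 2 genes did not overlap, against 1.3% of all genes tested. Because the list was selected on this contrast, nothing is read from these counts. The median log2 fold change was 0.08 over the 10 genes and 0.00016 over all genes tested.

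**Figure D1:**
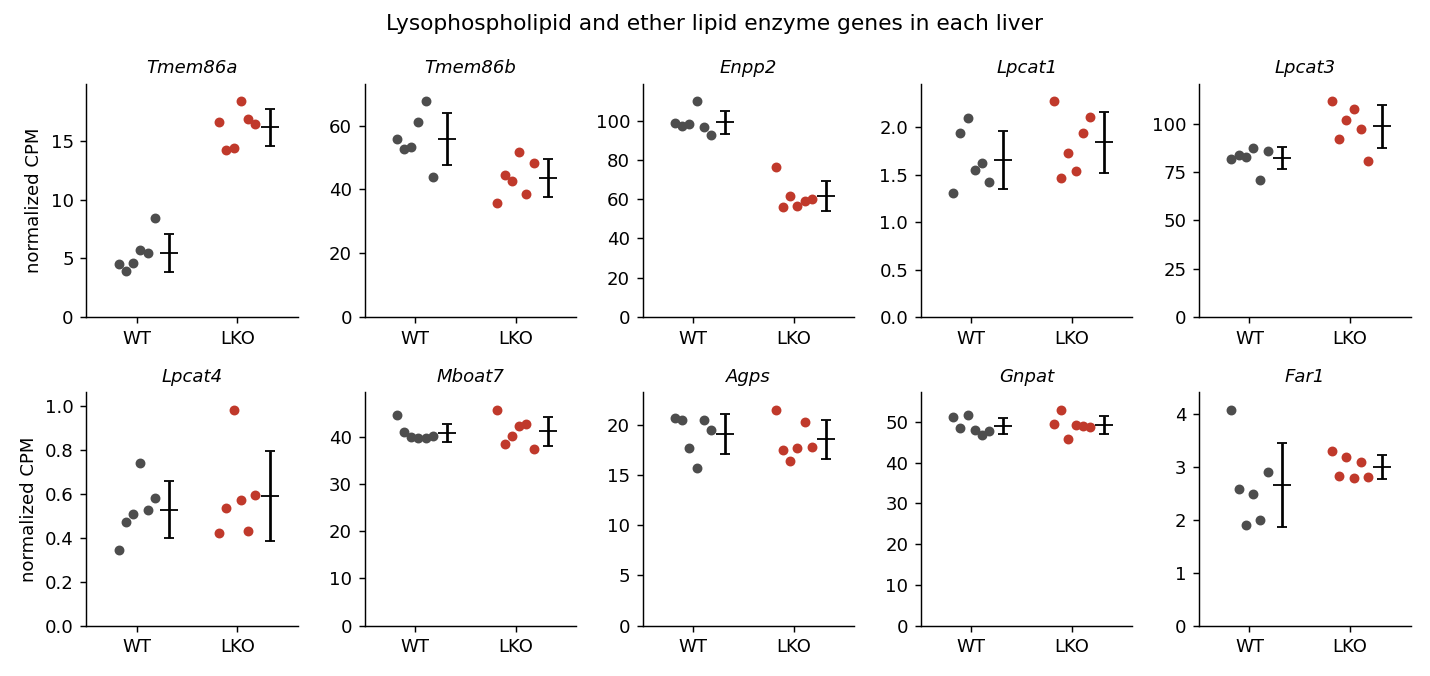
Each panel plots normalized CPM (vertical axis, from 0) of 1 gene in the 6 WT (grey) and 6 LKO (red) livers; points are livers, and the bar beside each group is the mean ± SD. The LKO livers lie above all WT livers for *Tmem86a* (14.2 to 18.4 against 3.94 to 8.43) and below all WT livers for *Enpp2* (56.0 to 76.4 against 92.7 to 110), and the points of the other 8 genes overlap.

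Stretches upstream of 3 of the genes are printed because *Tmem86a* and *Tmem86b* differed in opposite directions and because *Tmem86a* and *Lpcat3* are known target genes of the liver X receptors (LXR), nuclear receptors activated by oxysterols. The RefSeq promoter table (GRCm38.p6) held a window of 250 bases before to 50 bases after the transcription start for 9 of the 10 genes, and none for *Enpp2*. Each stretch runs from the start of its window to the base before the first annotated exon of any gene. The *Tmem86a* stretch is chr7:47050390-47050600 on the plus strand, the *Tmem86b* stretch is chr7:4630545-4630732 on the minus strand, and the *Lpcat3* stretch is chr6:124662854-124663026 on the plus strand. The *Tmem86b* stretch lies within an intron of the gene as GENCODE M21 draws it, since other transcripts begin further upstream. Capitals mark CCAAT boxes (CCAAT), the core of cAMP response elements (TGACG) and GC boxes (GGGCGG), each searched on both strands, and adjoining capitals can be overlapping matches.
Tmem86a: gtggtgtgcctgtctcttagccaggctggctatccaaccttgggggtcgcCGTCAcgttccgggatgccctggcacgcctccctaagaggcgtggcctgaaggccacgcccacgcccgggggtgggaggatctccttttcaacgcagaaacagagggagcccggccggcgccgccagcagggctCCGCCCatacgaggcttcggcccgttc
Tmem86b: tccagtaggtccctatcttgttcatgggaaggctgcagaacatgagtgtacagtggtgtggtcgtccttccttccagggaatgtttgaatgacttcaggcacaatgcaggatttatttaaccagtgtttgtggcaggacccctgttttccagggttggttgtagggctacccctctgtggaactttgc
Lpcat3: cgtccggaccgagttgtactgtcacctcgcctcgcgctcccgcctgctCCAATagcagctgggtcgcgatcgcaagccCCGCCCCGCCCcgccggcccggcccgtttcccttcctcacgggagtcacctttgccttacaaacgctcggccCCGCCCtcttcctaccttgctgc

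The *Tmem86a* and *Lpcat3* stretches had a GC content of 68.2% and 68.8%, and the *Tmem86b* stretch had 49.5%. Over the whole windows, 8 of the 9 genes held a GC box, all but *Tmem86b*, against 35.7% of the 32851 promoter windows in the table. A CCAAT box was found for 5 of the 9, *Tmem86a*, *Tmem86b*, *Lpcat3*, *Agps* and *Far1* (37.4% of all windows), and the TGACG core for 4, *Tmem86a*, *Lpcat1*, *Gnpat* and *Far1* (20.8% of all windows). An E-box (CACGTG) was found for *Gnpat* alone (7.15% of all windows). The half-site AGGTCA, the unit bound by LXR and other nuclear receptors, was found in none of the 9 windows and in 16.3% of all windows, and its repeat with 4 free bases (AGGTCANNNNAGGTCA) in none of the 9 and in 0.0152% of all windows. The repeat was found in only 5 of the 32851 windows, so its absence from 9 windows says nothing about LXR at these genes. These letter matches describe the windows alone, and binding was not measured.

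*Tmem86a* (ENSMUSG00000010307, chr7:47050601-47054777, plus strand, GRCm38) encodes a lysoplasmalogenase of the endoplasmic reticulum. Its level in WT livers was 3.94 CPM at the lowest, 5.01 at the median and 8.43 at the highest, counted from 65 to 131 reads. In LKO livers it was 14.2, 16.5 and 18.4 CPM, from 212 to 393 reads. All 6 LKO livers were above all 6 WT livers, and WT replicate 6 was the highest of its group, with the other 5 between 3.94 and 5.72 CPM. The means were 5.43 ± 1.61 CPM in WT and 16.2 ± 1.59 CPM in LKO (SD, n = 6), a log2 fold change of 1.57 (SE 0.15), or 2.98-fold. Relative to the mean, the spread was 29.6% in WT and 9.82% in LKO livers, and without WT replicate 6 the log2 fold change was 1.74.

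*Tmem86b* (ENSMUSG00000045282, chr7:4628040-4631422, minus strand) encodes the other lysoplasmalogenase of this family, which is enriched in liver. It had 44.0, 54.6 and 67.8 CPM (lowest, median, highest) in WT livers and 35.7, 43.8 and 51.9 CPM in LKO livers. All 6 LKO livers lay below the WT median and 5 of 6 WT livers lay above every LKO liver, but the lowest WT liver was within the LKO range. The means were 55.8 ± 8.11 and 43.7 ± 5.99 CPM (SD, n = 6), and the log2 fold change of -0.35 (SE 0.11) thus had the opposite sign to that of *Tmem86a*.

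Per kilobase of annotated exon (RPKM), *Tmem86b* was the more abundant of the pair in every liver. Its level was 29.1 ± 4.23 RPKM in WT and 22.8 ± 3.13 RPKM in LKO, and that of *Tmem86a* was 2.88 ± 0.852 and 8.56 ± 0.841 RPKM (SD, n = 6). *Tmem86a* therefore made up 9.19% ± 3.52 (SD, n = 6; 7.07% to 16.3%) of the summed level of both genes in WT livers. In LKO livers its share was 27.5% ± 3.17 (SD, n = 6; 24.4% to 32.1%), with no overlap between the groups. The summed level was 32 ± 3.99 RPKM in WT and 31.4 ± 3.43 RPKM in LKO livers (SD, n = 6), a difference smaller than the spread within either group. With the longest transcript as the length, the shares were 6.83% ± 2.71 and 21.5% ± 2.69 (SD, n = 6). No stretch of 50 bases in the longest transcript of either gene was found in a transcript of another gene. Over all annotated exons, *Tmem86b* shares 165 bases (8.61% of their length) with the opposite-strand gene *Gm44877*. That gene had 3 to 11 reads per liver, against 667 to 1295 for *Tmem86b*.

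**Figure D2:**
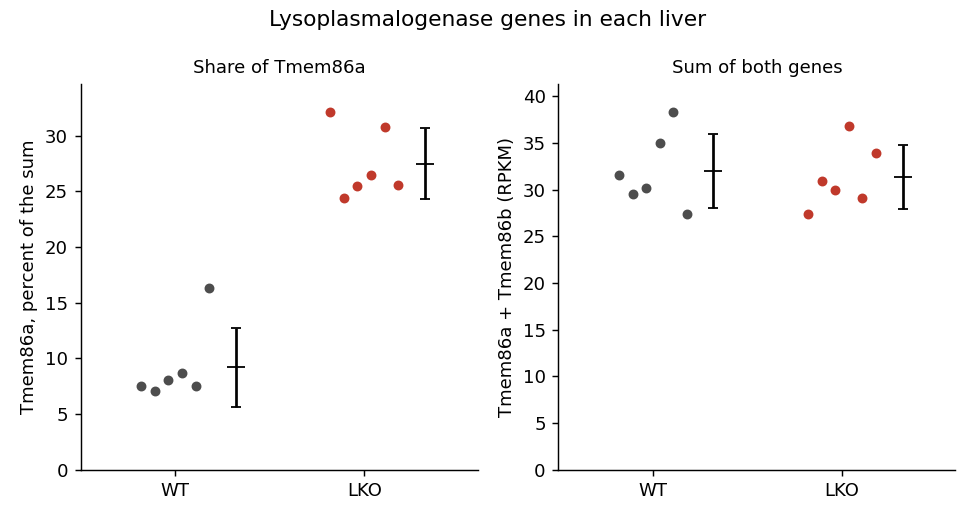
The left panel plots the share of *Tmem86a* in the summed RPKM of *Tmem86a* and *Tmem86b* (percent), and the right panel plots that sum (RPKM), in the 6 WT (grey) and 6 LKO (red) livers with the mean ± SD beside each group. The share is 7.07% to 16.3% in WT and 24.4% to 32.1% in LKO livers, while the sums overlap (27.4 to 38.3 and 27.4 to 36.8 RPKM).

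*Enpp2* (ENSMUSG00000022425, chr15:54838901-54952892, minus strand) encodes autotaxin, the main source of LPA in plasma. WT livers had 92.7 CPM at the lowest, 97.9 at the median and 110 at the highest, and LKO livers had 56.0, 59.7 and 76.4 CPM. All 6 LKO livers were below all 6 WT livers. LKO replicate 1 was the highest of its group, with the other 5 LKO livers between 56.0 and 61.8 CPM. The means were 99.0 ± 5.78 CPM in WT and 61.7 ± 7.56 CPM in LKO (SD, n = 6), a log2 fold change of -0.68 (SE 0.077), or 0.623 times the WT level. Without LKO replicate 1 the log2 fold change was -0.75. The exons of *Enpp2* share 345 bases, 5.97% of their length, with the opposite-strand gene *Gm26684*, which had 85 to 246 reads per liver against 836 to 1849 for *Enpp2*.

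Because whole liver was sequenced, fewer cells of a type and less RNA per cell cannot be told apart, and the markers of other liver cells are given beside these values. All 8 Kupffer cell markers had higher means in LKO livers, with a median log2 fold change of 0.41 against 0.00016 over all genes tested. None was called at the threshold that 0.428% of all genes tested passed. Their unadjusted p (edgeR) ran from 0.00144 for *Clec4f* to 0.315 for *Marco*, picked as the extremes. Their summed level was 142 to 243 CPM in LKO against 112 to 151 CPM in WT livers. The first 2 of these markers, *Clec4f* and *Vsig4*, had 59.1 ± 9.22 and 13.1 ± 2.24 CPM in LKO and 45.0 ± 4.32 and 9.70 ± 1.00 CPM in WT livers (SD, n = 6). All 7 stellate cell markers had higher means in LKO as well, with none called and a median log2 fold change of 0.22. They summed to 190 to 284 CPM in LKO and 162 to 248 CPM in WT livers. Of these, *Lrat* had 13.5 ± 3.50 and *Des* 2.75 ± 0.577 CPM in LKO, against 9.75 ± 1.30 and 2.42 ± 0.522 CPM in WT livers (SD, n = 6). Of the 8 endothelial markers 7 had higher means in LKO, with none called and a median log2 fold change of 0.09. The list summed to 234 to 285 CPM in LKO and 222 to 283 CPM in WT. *Stab1* had 52.0 ± 4.61 and 48.7 ± 6.51 and *Stab2* 47.2 ± 2.31 and 45.7 ± 3.53 CPM (SD, n = 6). *Lyve1*, picked after its values were seen, differed most of the 8, with 13 ± 4.48 CPM in LKO and 7.66 ± 0.952 CPM in WT livers (SD, n = 6), and 5 of 6 LKO livers were above all WT livers.

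Of the 6 bile duct markers 4 had higher means in LKO, with none called, and *Sox9* and *Krt7* were lower. The list summed to 34.2 to 129 CPM in LKO and 37.0 to 63.9 CPM in WT livers. Most of the sum was *Spp1*, picked after its values were seen, with 48.1 ± 32.9 CPM in LKO and 37.8 ± 8.46 CPM in WT livers (SD, n = 6). The highest sum was that of LKO replicate 1, the liver with the highest *Enpp2* of its group. It rested on *Spp1*, which reached 114 CPM in LKO livers, and so on 1 gene. *Krt19* and *Krt7*, which define bile duct cells, were near 1 CPM or lower in both groups, at 1.02 ± 0.321 and 0.568 ± 0.244 CPM in LKO and 0.854 ± 0.259 and 0.787 ± 0.370 CPM in WT livers (SD, n = 6). B cell markers summed to 1.81 to 3.52 CPM in LKO and 0.829 to 1.78 CPM in WT livers, so these sums did not overlap, and *Cd79a* and *Cd79b* had 0.273 ± 0.168 and 0.5 ± 0.150 CPM in LKO and 0.190 ± 0.0999 and 0.265 ± 0.145 CPM in WT livers (SD, n = 6). The adipocyte markers *Adipoq* and *Lep* were at or near 0, and the 4 adipocyte markers together did not exceed 0.105 CPM in any liver. The summed level of the 7 hepatocyte markers was 84100 to 95100 CPM in LKO and 92400 to 115000 CPM in WT livers. The ratio of means was 0.900, against 0.623 for *Enpp2* and 0.782 for *Tmem86b*. Most of this sum was *Alb*, with 67000 of 89500 CPM in LKO and 76100 of 99500 CPM in WT livers on average. The median log2 fold change of the 7 markers was -0.09, and 1 of them, *Ttr*, was above 0. The part of these markers in the values of *Tmem86a*, *Tmem86b* and *Enpp2* was not tested.

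*Lpcat3* (ENSMUSG00000004270, chr6:124663027-124704418, plus strand) encodes the acyltransferase that places polyunsaturated chains into lysophosphatidylcholine. It was measured at 71.2, 83.4 and 87.4 CPM (lowest, median, highest) in WT livers and at 81.1, 99.7 and 112 CPM in LKO livers. Of the LKO livers 5 of 6 were above every WT liver, and LKO replicate 6 was below the WT median. The means were 82.2 ± 5.73 and 98.8 ± 11.1 CPM (SD, n = 6), a log2 fold change of 0.27 (SE 0.079), or 1.20-fold. Its exons share 334 bases (10.2% of their length) with *Emg1* on the opposite strand, which had 543 to 822 reads per liver against 1187 to 2404 for *Lpcat3*.

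For *Lpcat3* the study also lists a qPCR primer pair, shown because it marks the part of the transcript that the study's own assay reads. The forward primer lies in exon 2 (chr6:124698150-124698171, GRCm38) and the reverse primer in exon 3 (chr6:124699256-124699275), so the product of 65 bases spans an intron. The reverse primer is written as the oligo, complementary to the transcript, and all bases of both primers are in capitals since each matched in full.
Lpcat3 forward primer: GGCCTCTCAATTGCTTATTTCA
Lpcat3 reverse primer: AGCACGACACATAGCAAGGA

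The other measured phosphatidylcholine acyltransferases were scarce. *Lpcat1* (ENSMUSG00000021608, chr13:73467197-73516422, plus strand), best known for making surfactant lipid in lung, had 1.66 ± 0.304 CPM in WT and 1.84 ± 0.319 CPM in LKO livers (SD, n = 6), from 19 to 49 reads per liver. *Lpcat4* (ENSMUSG00000027134, chr2:112239468-112247111, plus strand) had 0.528 ± 0.130 and 0.588 ± 0.206 CPM (SD, n = 6), from 5 to 17 reads per liver. Their log2 fold changes, 0.16 (SE 0.17) and 0.14 (SE 0.27), were no larger than their standard errors, and that of *Lpcat4* was -0.06 without LKO replicate 3. At these read numbers the 95% interval of the log2 fold change ran from -0.17 to 0.49 for *Lpcat1* and from -0.39 to 0.67 for *Lpcat4*. Neither interval leaves out a difference of the size of that of *Lpcat3*. In summed RPKM of the 3 *Lpcat* genes, *Lpcat3* made up 97.9% ± 0.313 in WT and 98.0% ± 0.374 in LKO livers (SD, n = 6).

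*Mboat7* (ENSMUSG00000035596, chr7:3677789-3693523, minus strand) encodes the acyltransferase that returns arachidonic acid to lysophosphatidylinositol. It had 39.6 to 44.6 CPM in WT and 37.4 to 45.7 CPM in LKO livers, with means of 40.8 ± 1.89 and 41.1 ± 3.03 CPM (SD, n = 6). The range of the WT livers lay within that of the LKO livers. Exons of *Mboat7* share 277 bases (3.32% of their length) with *Tsen34* on the opposite strand. *Tsen34* had 170 to 343 reads per liver, against 575 to 993 for *Mboat7*. The log2 fold change was 0.01 (SE 0.061), with a 95% interval from -0.11 to 0.13, which leaves out a difference of the size seen for *Tmem86b* or *Enpp2*.

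Of the 3 genes of ether lipid synthesis, *Gnpat* and *Agps* differed little between the genotypes, and *Far1* rested on few reads. *Gnpat* (ENSMUSG00000031985, chr8:124863033-124890057, plus strand), which acylates dihydroxyacetone phosphate in the first step, had 48.9 ± 1.99 CPM in WT and 49.2 ± 2.27 CPM in LKO livers (SD, n = 6). *Agps* (ENSMUSG00000042410, chr2:75832177-75931350, plus strand), which exchanges that acyl chain for a fatty alcohol and so makes the ether bond, had 19.1 ± 2.02 and 18.5 ± 1.94 CPM (SD, n = 6). *Far1* (ENSMUSG00000030759, chr7:113513834-113571511, plus strand), which reduces acyl-CoA to the fatty alcohol, had 2.66 ± 0.789 and 3.00 ± 0.221 CPM (SD, n = 6). In LKO livers all 6 values of *Far1*, 2.79 to 3.30 CPM, fell inside the wider WT range of 1.91 to 4.08 CPM. The top of that range was WT replicate 1, with the next WT liver at 2.90 CPM. All 6 LKO livers were above the WT median and the WT mean. Without WT replicate 1 the log2 fold change of *Far1* was 0.34.

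The log2 fold changes of *Gnpat*, *Agps* and *Far1* were 0.01 (SE 0.053), -0.04 (SE 0.088) and 0.18 (SE 0.17). Their 95% intervals ran from -0.10 to 0.11, from -0.22 to 0.13 and from -0.15 to 0.52. The interval of *Gnpat* was the narrowest of the 10 genes, and that of *Far1*, counted from 30 to 72 reads per liver, was wide enough to hold the difference seen for *Lpcat3*. Exons of *Gnpat* share 88 bases with *2810004N23Rik* on the opposite strand and 280 bases with *Gm16163* on the same strand, the latter with at most 2 reads per liver.

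Compared per kilobase of annotated exon, the levels of the 10 genes in WT livers fell in the order *Tmem86b*, *Lpcat3*, *Enpp2*, *Gnpat*, *Mboat7*, *Tmem86a*, *Agps*, *Lpcat1*, *Far1*, *Lpcat4*. The means ran from 29.1 RPKM for *Tmem86b* and 25.1 ± 1.75 RPKM for *Lpcat3* over 17.1 ± 1.00 for *Enpp2*, 13.6 ± 0.554 for *Gnpat* and 4.89 ± 0.227 for *Mboat7* to 0.187 ± 0.0461 RPKM for *Lpcat4* (SD, n = 6). Neighbours whose WT ranges overlapped, and which therefore have no clear order, were *Tmem86b* and *Lpcat3*, *Tmem86a* and *Agps*, *Lpcat1* and *Far1*, and *Far1* and *Lpcat4*. In LKO livers *Lpcat3* (30.2 ± 3.41 RPKM) stood before *Tmem86b* and *Gnpat* (13.7 ± 0.634 RPKM) before *Enpp2* (10.7 ± 1.31 RPKM), with overlapping ranges in both cases, and *Tmem86a* (7.53 to 9.75 RPKM) stood before *Mboat7* (4.49 to 5.48 RPKM) with no overlap.

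The order depends on the length used. With the longest transcript in place of all annotated exons, *Mboat7* had 12.0 RPKM in WT and 12.1 RPKM in LKO livers and stayed ahead of *Tmem86a* (2.97 and 8.82 RPKM), and *Enpp2* (32 and 19.9 RPKM) stayed ahead of *Gnpat* (16.4 and 16.5 RPKM). *Lpcat3* (34.6 and 41.6 RPKM) and *Tmem86b* (41.5 and 32.5 RPKM) changed places between WT and LKO with either length.

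**Figure D3:**
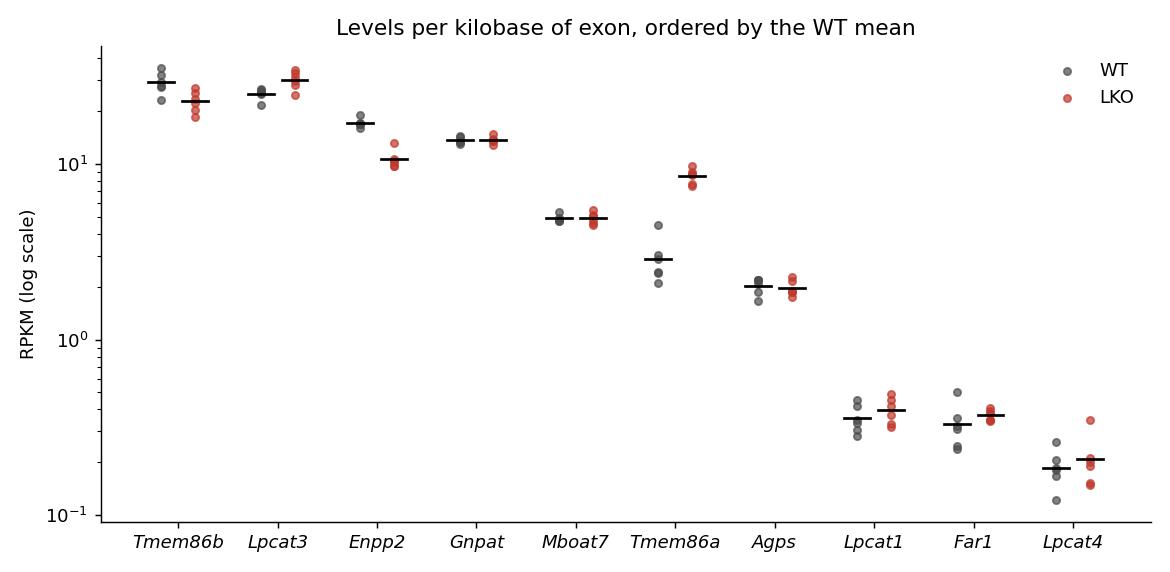
The level of each gene per kilobase of annotated exon (RPKM, log axis) is plotted for the 6 WT (grey) and 6 LKO (red) livers, with points for livers and lines for means; genes are ordered by the WT mean. The means span from 29.1 RPKM (*Tmem86b*) to 0.187 RPKM (*Lpcat4*) in WT livers, and *Tmem86a* moves from 2.88 to 8.56 RPKM.

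Of the 10 genes 4 lie on chromosome 7, *Tmem86a*, *Tmem86b*, *Mboat7* and *Far1*, and their log2 fold changes of 1.57, -0.35, 0.01 and 0.18 shared neither sign nor size. By the smallest root mean square difference between centred log2 CPM over the 12 livers, the genes with the pattern most like that of *Tmem86a* were *Lekr1* (0.323), *Cd300lb* (0.361) and *Rec8* (0.370), where the median over all genes was 0.891. For *Enpp2* they were *Alkbh2* (0.210), *Tyk2* (0.212) and *Fhit* (0.219), where the median was 0.460. *Rec8* had 2.36 CPM in WT and 4.87 CPM in LKO livers and *Tyk2* had 32.4 and 26.1 CPM, while *Lekr1* and *Cd300lb* were below 1 CPM in both groups on average.

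The other genes of these pathways were described from 5 lists of 74 genes in all, of which 69 were tested. In edgeR's quasi-likelihood test, adjusted over all genes tested, 1 of the 69 passed as higher in LKO and 0 passed as lower. Of all genes tested 0.274% passed as higher and 0.154% as lower. Of the 69 genes 15 had an unadjusted p under 0.05, as did 11.7% of all genes tested. The lists were chosen with earlier results known, and these counts are descriptions. The gene that passed was *Pltp*, an LXR target that encodes the phospholipid transfer protein of plasma. *Pltp* had 25.0, 34.9 and 92.3 CPM (lowest, median, highest) in WT livers and 110, 135 and 170 CPM in LKO livers, with no overlap. The means were 46.2 ± 25.4 and 137 ± 28.6 CPM (SD, n = 6), a log2 fold change of 1.57 (SE 0.27, edgeR adjusted p = 0.0171). With 1 of the 12 livers left out it ranged from 1.44 to 1.89, and *Pltp* passed in 11 of the 12 fits. Without WT replicate 5 it was 1.48 and did not pass (edgeR adjusted p = 0.0585), so that 0 of the pathway genes did.

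The list of liver X receptors and their classical targets leaves out *Tmem86a* and *Lpcat3*. In it 9 of 10 genes had a positive log2 fold change, as had 50% of all genes tested. Positive values were also held by 8 of 9 LPA genes and 12 of 16 other ether lipid genes. The phospholipase list had 12 of 25 and the other acyltransferases had 3 of 9. In the LXR list 1 gene was called as higher (0.274% of all genes tested) and 0 as lower (0.154%). Its median was 0.27 against 0.00016 for all genes tested. In this list 4 of 10 genes had an unadjusted p under 0.05 (edgeR), against 11.7% of all genes tested. The positive values of the LXR list include those of the receptor genes *Nr1h2* and *Nr1h3*, both 0.02 (SE 0.064 and 0.063). The target genes *Abcg5*, *Abcg8*, *Abcg1* and *Mylip* had 0.42, 0.29, 0.26 and 0.26 (SE 0.15, 0.14, 0.14 and 0.11), and none was called. All of these fall outside the naming rule and were picked after their values were seen. *Scd1*, the stearoyl-CoA desaturase, had 33100 ± 2980 CPM in LKO and 21200 ± 7370 CPM in WT livers (SD, n = 6; log2 fold change 0.64, SE 0.18, edgeR adjusted p = 0.135). *Srebf1*, which encodes the lipogenic regulator SREBP1, had 197 ± 54.5 and 157 ± 40.7 CPM (SD, n = 6; 0.33, SE 0.19, edgeR adjusted p = 0.524). *Abca1*, a cholesterol exporter, was the gene with the negative value, with 242 ± 16.4 CPM in LKO and 271 ± 48.4 CPM in WT livers (SD, n = 6; -0.16, SE 0.099, edgeR adjusted p = 0.555). The values of *Tmem86a* and of *Lpcat3* that stand beside this list were 1.57 and 0.27.

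None of the 9 other acyltransferases tested, of 11 listed, passed in either direction. Their median log2 fold change was -0.06, with 1 of 9 genes at an unadjusted p under 0.05, near the 11.7% of all genes tested. The most abundant were *Lpgat1*, an acyltransferase of lysophospholipids (-0.06, SE 0.12, edgeR adjusted p = 0.887), and *Agpat3* and *Agpat2*, which acylate lysophosphatidic acid on the way to glycerolipids (-0.11 and -0.08, SE 0.065 and 0.061, edgeR adjusted p = 0.564 and 0.664).

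Among the 25 phospholipases A and lysophospholipases, all tested, 0 passed in either direction, 4 had an unadjusted p under 0.05 (11.7% of all genes tested), and the median log2 fold change was 0.00. *Lcat*, which esterifies cholesterol in plasma with an acyl chain of phosphatidylcholine and so releases lysophosphatidylcholine, had 315 ± 22.9 CPM in LKO and 331 ± 14.3 CPM in WT livers (SD, n = 6; -0.07, SE 0.062, edgeR adjusted p = 0.700). The lysophospholipase gene *Pnpla7* and the phospholipase gene *Pnpla8* had log2 fold changes of 0.12 (SE 0.070) and -0.05 (SE 0.056), with edgeR adjusted p of 0.527 and 0.780.

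On the side of LPA, the product of autotaxin, 9 of 12 listed receptor, phosphatase and related genes were tested, and 0 passed in either direction, with 1 of 9 at an unadjusted p under 0.05, near the 11.7% of all genes tested. Their median log2 fold change was 0.04, and that of *Enpp2* was -0.68. *Plpp3*, a lipid phosphate phosphatase at the cell surface that breaks down LPA, had 208 ± 8.57 CPM in LKO and 230 ± 26.3 CPM in WT livers (SD, n = 6; -0.15, SE 0.073, edgeR adjusted p = 0.463). *Acp6*, a mitochondrial LPA phosphatase, and *Plpp2* had log2 fold changes of 0.04 (SE 0.087, edgeR adjusted p = 0.893) and 0.11 (SE 0.18, edgeR adjusted p = 0.867). *Plpp2* and *Acp6* both changed sign when 1 liver was left out, to -0.10 without LKO replicate 1 and to -0.02 without WT replicate 2.

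All 16 other genes of ether lipids, plasmalogens and platelet-activating factor were tested, and 0 passed in either direction, with 5 of 16 at an unadjusted p under 0.05, against 11.7% of all genes tested. The median log2 fold change was 0.10. *Aldh3a2*, the fatty aldehyde dehydrogenase, had 333 ± 93.7 CPM in LKO and 250 ± 58.6 CPM in WT livers (SD, n = 6; 0.41, SE 0.18, edgeR adjusted p = 0.378). *Chpt1*, a choline phosphotransferase, and *Pafah2*, a hydrolase of platelet-activating factor, had log2 fold changes of 0.13 (SE 0.10) and -0.06 (SE 0.062), with edgeR adjusted p of 0.653 and 0.745.

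**Figure D4:**
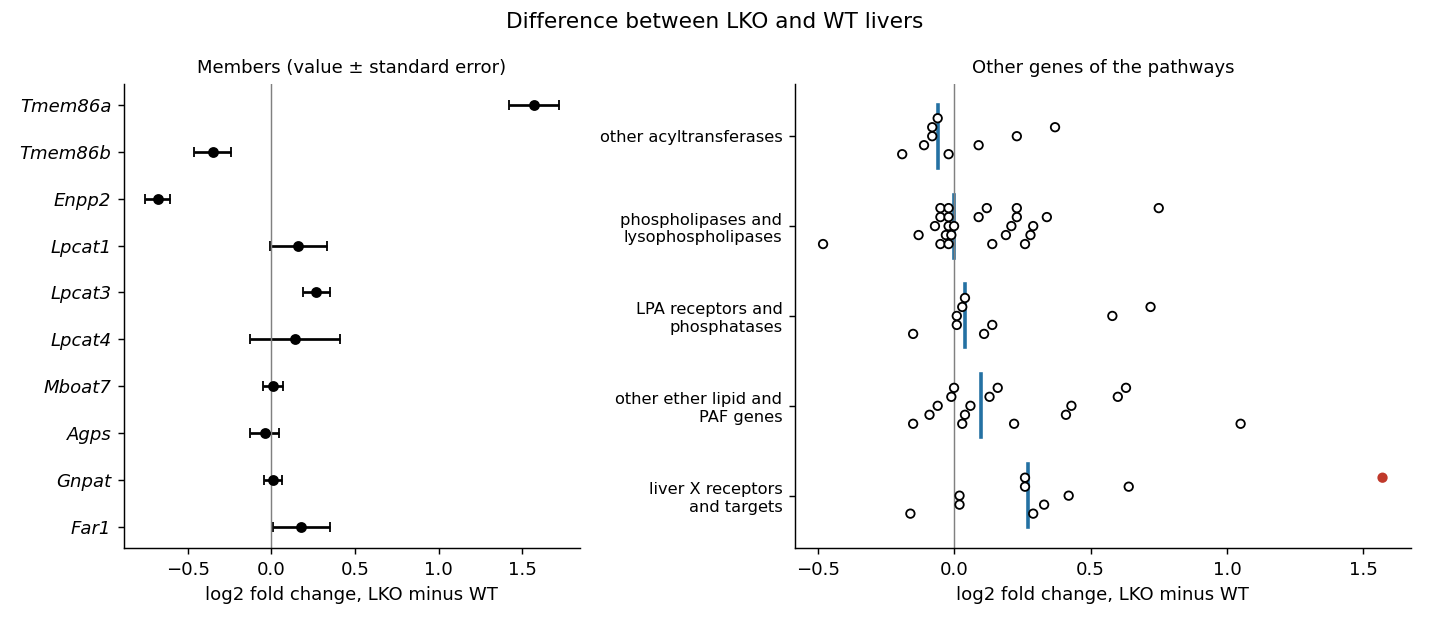
Log2 fold changes (LKO minus WT) of the 10 genes with their standard errors (left) and of the 69 other genes tested in 5 pathway lists (right; filled red, edgeR adjusted p under 0.05; blue line, median of the list; grey line, median of all genes tested). *Tmem86a* at 1.57 and *Enpp2* at -0.68 stand apart on the left, and *Pltp* at 1.57 is the filled point on the right.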

How the data were processed

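Liver mRNA of 6 WT and 6 LKO mice was sequenced, 1 library per mouse. The authors deposited unnormalized read counts for each Ensembl gene. Per the labels and the methods, quality control used FastQC 0.11.15, trimming Trimmomatic 0.36, alignment to GRCm38 HISAT2 2.1.0 and counting HTSeq 0.6.1. The strand setting and overlap mode of the counting are not given in the sources used here, so reads of overlapping genes on opposite strands cannot be told apart.

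Groups and replicate numbers were taken from the library names. The 17509 genes that had over 2 reads in 6 or more livers entered the fit. After TMM scaling they were compared by quasi-likelihood in edgeR 4.0.16 (R 4.3.3), with genotype as the only term, two-sided, with p-values adjusted by Benjamini-Hochberg across the 17509 genes and a threshold of 0.05. Standard errors were derived from the F statistics, and 95% intervals from the normal approximation. Log2 CPM used a prior count of 0.5. RPKM were TMM-scaled CPM per kilobase of the exon union (GENCODE M21, GRCm38). Reads carry no molecular identifiers, so copies of the same molecule cannot be told apart. Read numbers bear on counting error only, and can understate it. Separate livers come from separate mice.

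The 10 genes and all lists were chosen with earlier results of these data known. Named are all 10 genes, in each pathway list the genes past the threshold and the 3 most abundant, the 3 genes most like *Tmem86a* and *Enpp2*, and the first 2 markers of each list. The hepatocyte list held 8 symbols, of which 7 matched. Of the 54232 gene IDs, 54079 had a symbol. Alternatives were RLE and upper-quartile normalization, leaving out the 20 most abundant genes, no filter on low counts, a minimum of 10 counts per liver, filterByExpr, limma 3.58.1 (voom, the test of the study), DESeq2 1.42.0, a block for the replicate number, omission of each liver, and the longest transcript as length. The scripts were first tested on simulated counts with 194 changed genes. There edgeR called 58.8% of the genes given a log2 fold change of size 1 and 96.9% of those given size 2. Of its calls 5.03% were false, as were 16.8% of those of DESeq2. The simulated counts were drawn with the spread that edgeR itself had estimated for each gene. These rates therefore do not tell which calls of either tool in the real data are false.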

Additional observations from a re-analysis of the deposited data

Results flagged for a closer look

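In 54 groups of 6 livers searched (10 genes of lysophospholipid and ether lipid metabolism, the named pathway genes and the total count, each in WT and in LKO), 10 held a liver whose gap to the nearest other liver, as a share of the range of the group, was above the 95% critical value of Dixon. Chance flags about 1 in 20 groups, or 2.7 here. In LKO livers replicate 1 was the highest for *Enpp2* (0.715) and *Plpp2* (0.773) and the lowest for *Acp6* (0.647), and replicate 3 was the highest for *Lpcat4* (0.687). In WT livers the highest was replicate 1 for *Mboat7* (0.745), replicate 2 for *Abca1* (0.653), replicate 3 for *Aldh3a2* (0.740) and *Plpp3* (0.628) and replicate 4 for *Enpp2* (0.633), and the lowest was replicate 5 for *Lpcat3* (0.668). Leaving out the liver kept the sign of the log2 fold change of *Enpp2*, *Lpcat3*, *Mboat7*, *Abca1*, *Aldh3a2*, *Plpp3* and *Acp6*. It turned that of *Lpcat4* to -0.06 and that of *Plpp2* to -0.10.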

How the results depend on the processing

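The log2 fold changes of *Tmem86a* and *Enpp2* ranged from 1.57 to 1.61 and from -0.69 to -0.67 over the 9 alternative settings, and from 1.49 to 1.74 and from -0.75 to -0.65 with 1 of the 12 livers left out; these are the values that chose the genes, and their calls are not read as support. *Lpcat4* was left out by filterByExpr and by the minimum of 10 counts, and *Scd1* by leaving out the 20 most abundant genes. Among the other pathway genes the number called was 2 with DESeq2, which adds *Scd1*, and ranged from 0 (without WT replicate 5, which loses *Pltp*) to 2 (without WT replicate 3) with 1 liver left out. Over all genes tested the number called, 75, was 114 without the filter on low counts and 351 with DESeq2, and ranged from 38 (without WT replicate 5) to 132 (without WT replicate 3); the cause was not tested. The replicate numbers belong to different mice. Livers of the same number correlated by -0.06 to 0.14 in their deviations, against means of -0.04 to 0.02 with the other numbers. Only for replicate 3 was the value with its own number the lower (-0.06 against 0.02). Deviations were taken from the mean of each group, so for each gene they cancel out within a group. The mean with the other numbers thus follows closely from the value with the own number and is no separate baseline. What livers of the same number share was not tested. With the replicate block 97 genes were called, of which 60 were among the 75. Of the WT livers 2 of 6 correlated best with the LKO liver of their own number. With the longest transcript the WT level per length moved by more than its SD for all genes but *Tmem86a* and *Lpcat4*, to 41.5 RPKM for *Tmem86b*, 34.6 for *Lpcat3*, 32 for *Enpp2*, 16.4 for *Gnpat*, 12 for *Mboat7*, 2.59 for *Agps*, 0.536 for *Far1* and 0.451 for *Lpcat1*. *Lpcat1*, *Lpcat4* and *Far1* rest on at most 72 reads per liver, which limits what could be seen.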
